A study of Mus musculus with 20 samples.

Results

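Myc and 9 genes of ribosome biogenesis (Ncl, Npm1, Nolc1, Gnl3, Fbl, Nop56, Nop58, Dkc1 and Polr1b) were followed in cardiac fibroblasts of mice before and after myocardial infarction (MI). They were taken by gene symbol from a table of 25746 genes, and all 10 were present and passed the filter on low counts. The 10 genes and the lists below were chosen with earlier results of these data known. Their counts beside the shares of all genes are therefore descriptions. RNA-seq and ATAC-seq, which reads open chromatin, were each done on 10 libraries, with 2 libraries at each of day 3, day 7, week 2 and week 4 after MI and 2 from uninjured hearts. All mice, the uninjured group included, received tamoxifen at 75 mg per kg per day for 5 days to switch on a MerCreMer recombinase. The cells were eGFP+ cells of the Tcf21 lineage, sorted with a gate drawn on wild-type cells without eGFP, and 10000 of them gave the RNA of a library. The labels name no separate animals or pools behind the 2 libraries of a group, so the p-values here rest on a spread between libraries that may be technical.

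Ribosomes are built in the nucleolus, where RNA polymerase I makes the precursor of ribosomal RNA (rRNA) and small nucleolar ribonucleoproteins (snoRNPs), assembly factors and nucleases modify, fold and trim it. Myc, a transcription factor that binds DNA together with Max, is known in many cell types as an activator of genes for this machinery, and growing or dividing cells need more of it. In the injured heart, fibroblasts leave rest, divide and then make scar matrix.

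All 12 resident fibroblast markers had counts in every group, with a summed level of 26540 to 69740 CPM (the count scaled to a common library total, counts per 1000000) per library. Tcf21 itself had 7.91 to 37.3 CPM. Library totals were 16397211 to 21043997 counts. The least abundant of the 10 genes, Polr1b, had 96 to 348 counts per library, and Fbl and Gnl3 had at least 416 and 420 counts. The deposited values are expected (estimated) counts, and Npm1, Fbl and Nop56 had fractional counts in all 10 libraries, so part of their reads was shared with other loci. Gnl3, Nop56 and Dkc1 overlap a neighbouring gene by 15, 5 and 45 bases (Pbrm1, Idh3b and Mpp1), and whether counting used strand is not given in the sources used here.

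RefSeq promoter sequences of 300 bases (250 before to 50 after the gene start, GRCm38.p6) were at hand for 7 of the 10 genes; Myc, Npm1 and Fbl are named only. Shown 5′ to 3′ on the gene's strand are Ncl and Dkc1, whose RNA was higher at day 3, Nop58, whose RNA was lower at day 7, and Nolc1, where searched motifs were found (in capitals). They lie at chr1:86359406-86359705 (minus strand) for Ncl, chrX:75095604-75095903 (plus strand) for Dkc1, chr1:59684756-59685055 (plus strand) for Nop58 and chr19:46075597-46075896 (plus strand) for Nolc1.
Ncl: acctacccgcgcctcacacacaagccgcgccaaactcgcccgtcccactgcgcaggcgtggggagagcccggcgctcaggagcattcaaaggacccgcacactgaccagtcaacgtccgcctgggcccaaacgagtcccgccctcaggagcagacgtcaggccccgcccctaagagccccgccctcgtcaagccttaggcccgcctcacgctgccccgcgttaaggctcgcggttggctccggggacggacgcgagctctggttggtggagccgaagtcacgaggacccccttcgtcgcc
Dkc1: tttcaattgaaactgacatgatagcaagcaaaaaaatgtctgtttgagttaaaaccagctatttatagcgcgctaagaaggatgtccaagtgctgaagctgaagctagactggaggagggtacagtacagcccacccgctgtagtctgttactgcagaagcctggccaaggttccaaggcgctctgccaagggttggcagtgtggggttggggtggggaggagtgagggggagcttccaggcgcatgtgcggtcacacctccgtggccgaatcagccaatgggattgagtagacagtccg
Nop58: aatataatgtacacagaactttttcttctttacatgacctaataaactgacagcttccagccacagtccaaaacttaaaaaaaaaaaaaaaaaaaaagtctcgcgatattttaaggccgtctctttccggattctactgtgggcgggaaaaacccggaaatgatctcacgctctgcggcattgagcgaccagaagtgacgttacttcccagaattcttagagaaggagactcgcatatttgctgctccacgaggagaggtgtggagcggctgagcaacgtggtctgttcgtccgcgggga
Nolc1: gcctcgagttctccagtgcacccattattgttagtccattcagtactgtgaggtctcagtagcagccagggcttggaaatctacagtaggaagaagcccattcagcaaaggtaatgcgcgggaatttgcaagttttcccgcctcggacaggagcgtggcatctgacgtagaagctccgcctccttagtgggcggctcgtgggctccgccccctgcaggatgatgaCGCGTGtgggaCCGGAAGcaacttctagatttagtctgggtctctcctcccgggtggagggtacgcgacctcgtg

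The E-box CACGTG, the letters bound by Myc with Max, was present on either strand in 2349 of 32851 promoters of this length, or 7.15%, and in 0 of the 7. The variant CACGCG, read on the opposite strand as CGCGTG, was present in 3045 promoters, or 9.27%, and in 1 of the 7, that of Nolc1, where it starts at position -25 from the gene start. The ETS-type motif CCGGAAG, searched on both strands, was present in 2910, or 8.86%, and in 1 of the 7, again Nolc1, at position -14. A match is a description of letters, and its absence from a window of this size says nothing about binding elsewhere.

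Myc RNA did not pass the test in any contrast. Myc (ENSMUSG00000022346, GRCm38 chromosome 15, 61985391 to 61990374) had 233 and 584 CPM in uninjured cells, 316 and 212 CPM at day 3, 202 and 243 CPM at day 7, 449 and 202 CPM at week 2, and 244 and 366 CPM at week 4. Libraries overlapped between every pair of groups next to each other in the order of means. The higher library of a pair was 2.51 times the lower in uninjured cells and 2.22 times at week 2. The log2 fold change at day 3 against uninjured was -0.59 ± 0.50 (SE, n = 2 libraries each), with an adjusted p of 0.513 (edgeR quasi-likelihood test, Benjamini-Hochberg over 14968 genes). It was 0.22 without uninjured replicate 2 and -1.13 without uninjured replicate 1. At day 7 against uninjured it was -0.87 ± 0.50 (SE, adjusted p = 0.368 by edgeR), and with no filter on low counts it was -0.91 ± 0.27 (SE) and passed (adjusted p = 0.00959 by edgeR). Over the 5 groups the adjusted p for Myc was 0.681. With no filter it passed that test as well.

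The genes of the 4 nucleolar proteins each had their highest mean RNA level at day 3, and 2 of them, Npm1 and Ncl, passed against uninjured by edgeR. At day 3 against uninjured 11.8% of all genes were called, and nothing about the role is read from 2 of 4. Npm1, nucleophosmin, is a chaperone of the nucleolus that binds ribosomal proteins and histones. Npm1 (ENSMUSG00000057113, chromosome 11, 33152287 to 33163206) had 222 and 274 CPM in uninjured cells, 773 and 924 CPM at day 3, 368 and 448 CPM at day 7, 249 and 289 CPM at week 2, and 229.7 and 185 CPM at week 4. Day 3 lay apart from day 7 and day 7 apart from the other groups. Week 2 and week 4 each overlapped uninjured, while both week 4 libraries lay below both week 2 libraries. Npm1 was 3.51-fold higher at day 3 than in uninjured cells (log2 fold change 1.81 ± 0.23 SE, adjusted p = 0.000578 by edgeR). This call held with every library left out in turn, with a log2 fold change of 1.64 to 1.95.

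Ncl, nucleolin, is an abundant RNA-binding protein needed for polymerase I transcription and early processing. Ncl (ENSMUSG00000026234, chromosome 1, 86344719 to 86359400) had 240.1 and 264 CPM in uninjured cells, 429 and 502 CPM at day 3, 270.3 and 288 CPM at day 7, 224 and 318 CPM at week 2, and 255 and 242 CPM at week 4. Only day 3 lay apart from the group next to it; the other neighbours overlapped. Ncl was 1.90-fold higher at day 3 than in uninjured cells (log2 fold change 0.92 ± 0.21 SE, adjusted p = 0.0134 by edgeR). The call was lost without uninjured replicate 1 (0.83, adjusted p = 0.121), uninjured replicate 2 (0.97, adjusted p = 0.0751) or day 3 replicate 2 (0.82, adjusted p = 0.112).

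Nolc1 escorts snoRNPs through the nucleolus and Cajal bodies, and Gnl3, nucleostemin, is a nucleolar GTP-binding protein. Nolc1 (ENSMUSG00000015176, chromosome 19, 46075863 to 46085530) had 67.4 and 80.7 CPM in uninjured cells, 86.0 and 112 CPM at day 3, 69.1 and 40.2 CPM at day 7, 65.0 and 72.6 CPM at week 2, and 53.9 and 37.1 CPM at week 4. Gnl3 (ENSMUSG00000042354, chromosome 14, 31012433 to 31019152) had 34.97 and 50.8 CPM in uninjured cells, 62.0 and 87.7 CPM at day 3, 30.6 and 39.3 CPM at day 7, 34.9 and 59.6 CPM at week 2, and 25.6 and 34.6 CPM at week 4. In both genes the day 3 libraries lay above every other library. The day 3 difference from uninjured did not pass for Nolc1 (log2 fold change 0.46 ± 0.30 SE, adjusted p = 0.371) or Gnl3 (0.84 ± 0.35 SE, adjusted p = 0.157) by edgeR.

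Of the genes for 3 proteins of box C/D snoRNPs, which place ribose methyl groups on rRNA, 0 passed at day 3 against uninjured by edgeR. In that contrast 11.8% of all genes were called, so 0 of 3 is not read as a result about this role. Whether the courses of the 3 genes differed from each other was not tested. Fbl, fibrillarin, is the methyltransferase, while Nop56 and Nop58 form the scaffold that holds the guide RNA. Fbl (ENSMUSG00000046865, chromosome 7, 28169710 to 28179269) had 34.99 and 28.8 CPM in uninjured cells, 56.1 and 58.1 CPM at day 3, 32.2 and 32.6 CPM at day 7, 34.7 and 24.1 CPM at week 2, and 40.9 and 42.8 CPM at week 4. Its day 3 libraries stood above all others, yet the difference from uninjured did not pass by edgeR (log2 fold change 0.88 ± 0.30 SE, adjusted p = 0.083) while DESeq2 called it.

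Nop56 (ENSMUSG00000027405, chromosome 2, 130274430 to 130279313) had 152 and 194 CPM in uninjured cells, 191 and 289.5 CPM at day 3, 119 and 90.8 CPM at day 7, 140 and 164 CPM at week 2, and 116 and 134 CPM at week 4. Nop58 (ENSMUSG00000026020, chromosome 1, 59684971 to 59719044) had 182 and 345 CPM in uninjured cells, 197 and 214 CPM at day 3, 105 and 77.1 CPM at day 7, 163 and 136 CPM at week 2, and 91.7 and 126 CPM at week 4. For both scaffold genes the day 3 and uninjured libraries overlapped, and day 7 had the lowest mean. At day 3 neither passed against uninjured, with log2 fold changes of 0.50 ± 0.24 (SE, adjusted p = 0.223) for Nop56 and -0.33 ± 0.30 (SE, adjusted p = 0.546) for Nop58 by edgeR. Nop58 at day 3 changed sign, to 0.19, without uninjured replicate 2, whose level was 1.89 times that of replicate 1.

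Dkc1, dyskerin, is the pseudouridine synthase of box H/ACA snoRNPs. Dkc1 (ENSMUSG00000031403, chromosome X, 75095854 to 75109777) had 46.6 and 38.0 CPM in uninjured cells, 81.7 and 111 CPM at day 3, 44.5 and 37.1 CPM at day 7, 33.6 and 40.0 CPM at week 2, and 50.1 and 46.7 CPM at week 4. Day 3 stood above all other libraries. Dkc1 was 2.35-fold higher at day 3 than in uninjured cells (log2 fold change 1.23 ± 0.27 SE, adjusted p = 0.0112 by edgeR). The call was lost without uninjured replicate 1 (1.36, adjusted p = 0.0573), uninjured replicate 2 (1.07, adjusted p = 0.158) or day 3 replicate 2 (1.00, adjusted p = 0.136).

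Polr1b encodes a large catalytic subunit of RNA polymerase I. Polr1b (ENSMUSG00000027395, chromosome 2, 129100995 to 129126594) had 9.94 and 9.95 CPM in uninjured cells, 9.91 and 7.80 CPM at day 3, 8.38 and 5.65 CPM at day 7, 18.9 and 6.73 CPM at week 2, and 11.9 and 14.4 CPM at week 4. The week 2 libraries differed 2.81-fold and spanned nearly the whole range of the gene. It passed no test, and its log2 fold change at day 3 against uninjured was -0.12 ± 0.62 (SE, adjusted p = 0.939 by edgeR).

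**Figure D1:**
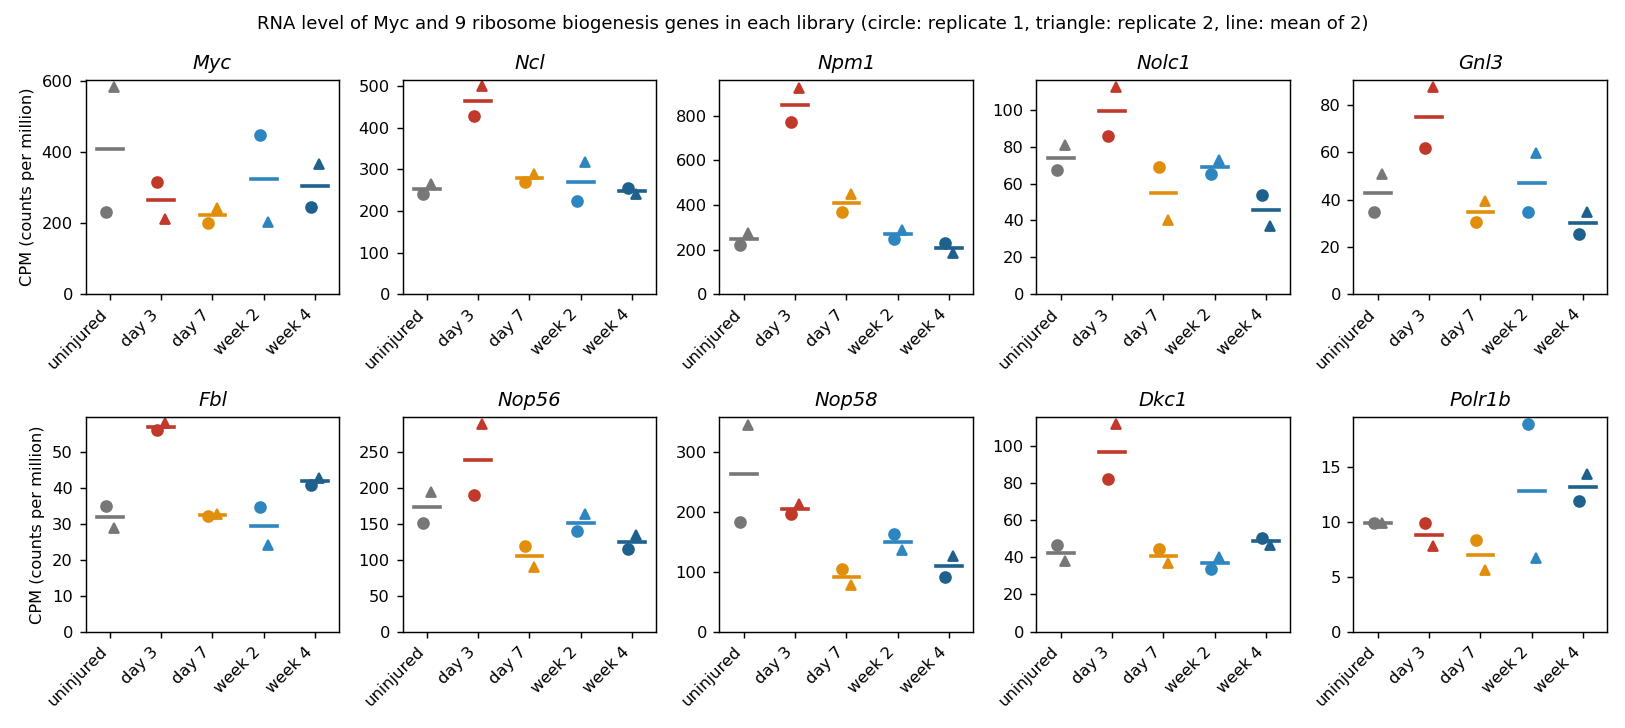
Level of each of the 10 genes in CPM (vertical axes, each from 0) in the 2 RNA libraries of the uninjured group and of each time after MI; circles are replicate 1, triangles replicate 2, lines the mean of 2. In Ncl, Npm1, Nolc1, Gnl3, Fbl and Dkc1 both day 3 points lie above both uninjured points, while Myc shows 233 and 584 CPM in the uninjured group alone.

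Counted over the 10 genes, day 3 against uninjured gave 3 higher (Npm1, Dkc1 and Ncl) and 0 lower, where 7.39% of the 14968 genes tested were higher and 4.4% lower, 11.8% in all (edgeR, adjusted p under 0.05). Without day 3 replicate 2 or either uninjured library, Npm1 was the only gene of the 10 called. Both day 3 libraries lay above both uninjured libraries in 6 of the 10, against 28.0% of all genes, and below in 1, Polr1b, against 32.2%. The median log2 fold change of the 10 was 0.67, and that of all genes tested was -0.02. In bulk samples, fewer cells of a type and less RNA per cell cannot be told apart.

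Day 7 against uninjured gave 1 gene, Nop58, which was lower, where 2.76% of all genes were lower, 4.39% higher and 7.15% changed in either direction. Nop58 had 105 and 77.1 CPM at day 7, against 182 and 345 CPM in uninjured cells (log2 fold change -1.54 ± 0.30 SE, adjusted p = 0.0103 by edgeR). The call was lost without uninjured replicate 2 (-1.003, adjusted p = 0.115) or day 7 replicate 2 (-1.39, adjusted p = 0.0996). Npm1 had a log2 fold change of 0.73 ± 0.22 (SE) at day 7 with an adjusted p of 0.0686 by edgeR (DESeq2 called it), and Nop56 had -0.72 ± 0.24 (SE) with 0.104.

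At the later times 0 of the 10 passed against uninjured by edgeR, where 1.89% of all genes were called at week 2 and 2.32% at week 4. At week 2, 1 gene (Nop58) had an unadjusted p under 0.05 and DESeq2 called 0. At week 4, 2 genes (Nolc1 and Nop58) had an unadjusted p under 0.05 and DESeq2 called 1, Nop58, with a log2 fold change by edgeR of -1.23 ± 0.30 (SE, adjusted p = 0.0571). These 4 contrasts share the 2 uninjured libraries, so they are not independent of each other.

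Set against day 3 directly, several later levels were lower. At week 4, 6 of the 10 genes were lower than at day 3 and 0 higher, where 7.52% of all genes were lower, 5.84% higher and 13.4% changed in either direction. Npm1 had 229.7 and 185 CPM at week 4, against 773 and 924 CPM at day 3 (log2 fold change -2.02 ± 0.23 SE, adjusted p = 0.000376 by edgeR). The other 5 were Gnl3, Nolc1, Dkc1, Nop56 and Ncl, with log2 fold changes of -1.30, -1.11, -0.98, -0.92 and -0.89 and adjusted p of 0.031, 0.029, 0.0306, 0.027 and 0.0152 by edgeR. Without day 3 replicate 2, week 4 replicate 1 or week 4 replicate 2 the count fell to 1, Npm1. Dkc1 alone was also lost without uninjured replicate 1 (-0.98, adjusted p = 0.0521), uninjured replicate 2 (-0.95, adjusted p = 0.0575) or the filter on low counts (-0.89, adjusted p = 0.0564). Nop58 (-0.90 ± 0.30 SE, adjusted p = 0.0674), Fbl (-0.44 ± 0.30 SE, adjusted p = 0.383), Polr1b (0.58 ± 0.62 SE, adjusted p = 0.602) and Myc (0.21 ± 0.50 SE, adjusted p = 0.838) did not pass by edgeR. Nop58 passed by DESeq2 (adjusted p = 0.0348) and by edgeR without the filter (0.0239), uninjured replicate 1 (0.0316) or uninjured replicate 2 (0.0377).

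Day 7 against day 3 gave 3 lower and 0 higher, where 0.555% of all genes were lower, 0.822% higher and 1.38% changed in either direction. Dkc1 (log2 fold change -1.27 ± 0.27 SE, adjusted p = 0.0392), Nop56 (-1.23 ± 0.25 SE, adjusted p = 0.0322) and Npm1 (-1.08 ± 0.22 SE, adjusted p = 0.0348) passed by edgeR. All 10 genes had a negative log2 fold change, and in 8 both day 7 libraries lay below both day 3 libraries, against 22.3% of all genes. No gene of the 10 was called without day 3 replicate 2, day 7 replicate 1 or day 7 replicate 2. Dkc1 was also lost without uninjured replicate 2 (-1.26), week 4 replicate 1 (-1.27) or week 4 replicate 2 (-1.26), and with scaling by library totals (-1.24). Nop58 (-1.21 ± 0.30 SE, adjusted p = 0.0754 by edgeR) passed by DESeq2 (0.00927), and by edgeR with no filter (0.00115) or with uninjured replicate 1 (0.0217) or replicate 2 (0.0251) left out. Ncl (-0.77 ± 0.21 SE, adjusted p = 0.0998 by edgeR) passed by DESeq2 (0.0214).

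Between later neighbours, 0 of the 10 passed by edgeR at week 2 against day 7 (0.648% of all genes called) or at week 4 against week 2 (0.608%). An unadjusted p under 0.05 was reached by 3 genes (Nop56, Nop58 and Npm1) and by 0 genes in these 2 contrasts, and DESeq2 called 0 in either. The test of any difference among the 5 groups, which called 15.7% of all genes, called 5 of the 10 by edgeR: Npm1 (adjusted p = 0.000338), Dkc1 (0.00953), Nop58 (0.0156), Ncl (0.0236) and Nop56 (0.0255). Without day 3 replicate 2 it called 2 (Nop58 and Npm1), and without week 4 replicate 1 it called 3 (Dkc1, Nop58 and Npm1).

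**Figure D2:**
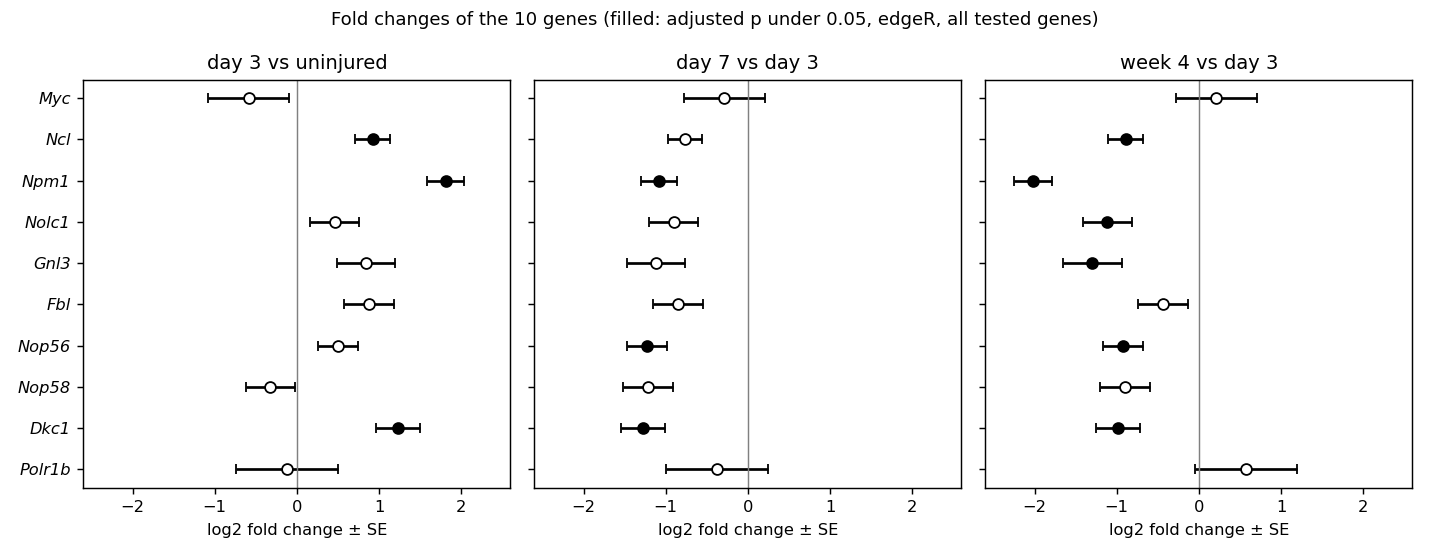
Log2 fold change (horizontal axes) with its SE for the 10 genes in 3 contrasts; filled points had an adjusted p under 0.05 by edgeR over all tested genes. At day 3 against uninjured Npm1, Dkc1 and Ncl are filled on the right, and at week 4 against day 3 there are 6 filled points on the left.

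The 10 genes did not vary as a block across the 10 libraries. Pearson's r of log2(CPM + 1) was 0.925 between Ncl and Npm1, 0.869 between Ncl and Dkc1, 0.856 between Fbl and Dkc1 and 0.815 between Nop56 and Nop58. Other pairs were lower, such as 0.134 between Fbl and Nop58, 0.18 between Npm1 and Nop58 and -0.49 between Npm1 and Polr1b. With Myc, r was 0.607 for Polr1b and 0.555 for Nop58, ranks 204 and 344 among 8985 genes with a mean of at least 10 CPM. For Ncl it was -0.343, rank 7062, and for Npm1 -0.295. These are descriptions over 10 libraries that share groups and scaling, with 2 libraries a group, and Myc and Nop58 are both highest in uninjured replicate 2.

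The genes whose levels were most like those of Myc over the 10 libraries were Tor3a (r = 0.932), Eif5a2 (0.914), Arrdc3 (0.887), Zcchc8 (0.868) and Irak1bp1 (0.864). This likeness includes spread between the libraries of a group, so no shared course over time is read from it. Eif5a2, for example, had 13.07 and 26.19 CPM in uninjured cells and 25.05 and 13.11 CPM at week 2. Those most like the mean of the 9 ribosome biogenesis genes were Eif5a (0.97), Nap1l1 (0.959), Gmds (0.958), Ndc1 (0.958) and Ebna1bp2 (0.958). Eif5a, a translation elongation factor, had 1480.0 and 1829 CPM at day 3, against 869.6 and 964 CPM in uninjured cells. Eif5a was picked for its likeness to that mean, so its level at day 3 is a description and no separate result. Tor3a had 117 and 102 CPM at day 3, against 106 and 135 CPM in uninjured cells.

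A list of other genes known as Myc targets, also chosen with earlier results of these data known, was read in the same fit. Of 38 tested, 19 were higher and 0 lower at day 3 than in uninjured cells, where 7.39% of all genes were higher and 4.4% lower, with a median log2 fold change of 0.93 beside -0.02 for all genes. The count was 10 to 12 without day 3 replicate 2 or either uninjured library. Npm3, a relative of Npm1, averaged 42.4 ± 3.67 CPM at day 3, against 2.82 ± 0.727 CPM in uninjured cells (SD, n = 2 each), a log2 fold change of 3.95 ± 0.60 (SE). Hspe1, a mitochondrial chaperonin, Nme1, a nucleoside diphosphate kinase, and Ran, the GTPase of nuclear transport, had log2 fold changes of 1.94, 1.94 and 1.88. These 4 held their calls with every library left out in turn. At week 4, 17 of the 38 were lower than at day 3, where 7.52% of all genes were lower, a count of 11 without day 3 replicate 2 and 10 without week 4 replicate 1. At week 4 against uninjured edgeR called 0 of the 38, 6 had an unadjusted p under 0.05 and DESeq2 called 1.

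Ribosome assembly factors outside the 10 were read in 5 lists. Joined, 157 genes were tested, of which 12 were higher and 1 lower at day 3 than in uninjured cells, with a median log2 fold change of 0.44. That is 7.64% higher, beside the 7.39% of all genes. The count higher was 2 without uninjured replicate 1, 1 without uninjured replicate 2, 1 without day 3 replicate 2 and 6 without either week 4 library. At week 4, 20 of the 157 were lower than at day 3 and 1 higher, where 7.52% of all genes were lower and 5.84% higher. The count lower was 2 without day 3 replicate 2, 3 without week 4 replicate 1, 4 without week 4 replicate 2 and 13 and 12 without uninjured replicates 1 and 2.

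By role, snoRNP partners gave 2 of 12 higher, Nhp2, which sits beside Dkc1 in H/ACA particles (log2 fold change 1.86 ± 0.31 SE), and Ruvbl1, an ATPase of snoRNP assembly (1.04 ± 0.24 SE). Nhp2 kept its call with every library left out in turn. Polymerase I machinery gave 2 of 20 higher, the subunits Cd3eap (1.80 ± 0.51 SE) and Polr1d (1.20 ± 0.28 SE). The list labelled small subunit processome, which also holds other assembly factors such as Ltv1, gave 2 of 47, Ltv1 (1.07) and Tbl3 (1.06). The pre-rRNA nucleases gave 2 of 23, Pop7 (1.76), a subunit of RNase MRP, and Exosc8 (1.05), of the exosome. Large subunit assembly gave 4 of 55 higher, Mak16 (1.71), Nop16 (1.17), Eif6 (0.94) and Ebna1bp2 (0.79), and 1 lower, Nop53 (-0.77). List medians were 0.72, 0.46, 0.37, 0.20 and 0.53 in the order given. The shares higher were 16.7%, 10.0%, 4.26%, 8.7% and 7.27% in the same order, where 7.39% of all genes were higher and 4.4% lower. With so few calls a list, nothing about the roles is read from these counts. Of these genes, Ruvbl1, Cd3eap, Polr1d, Ltv1, Tbl3, Pop7, Exosc8, Mak16, Nop16, Eif6, Ebna1bp2 and Nop53 each lost the call without 1 or more of the libraries.

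The Myc network, the relatives and partners of Myc, gave 1 of 11 higher and 1 lower at day 3 than in uninjured cells. The 9.09% higher is close to the 7.39% of all genes, so nothing about the network is read from it. Its 2 called genes are given as single values, both named here after their values were seen. Mycn, a paralogue of Myc, had 21.2 and 40.3 CPM in uninjured cells, 1.49 and 0.168 CPM at day 3, 0.72 and 3.36 CPM at day 7, 3.86 and 0.29 CPM at week 2, and 15.5 and 8.7 CPM at week 4. Its level was lower at day 3 (adjusted p = 0.0314 by edgeR), with 26 and 3 counts at day 3, against 387 and 749 counts in uninjured cells. Mxd3, a Max partner of the Mad family, had 32.1 and 34.2 CPM at day 3, against 1.88 and 0.0538 CPM in uninjured cells (adjusted p = 0.0156 by edgeR). The Mycn call was lost when either library of the uninjured group or of week 4, or day 3 replicate 2, was left out, and the Mxd3 call without uninjured replicate 2 or day 3 replicate 2. Max, the partner of Myc, also named after its values were seen, had 20.1 and 36.8 CPM at day 7, against 6.37 and 5.22 CPM in uninjured cells (log2 fold change 2.32 ± 0.55 SE, adjusted p = 0.0249 by edgeR). The Max result no longer passed when day 7 replicate 2 or either of the uninjured libraries was removed.

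**Figure D3:**
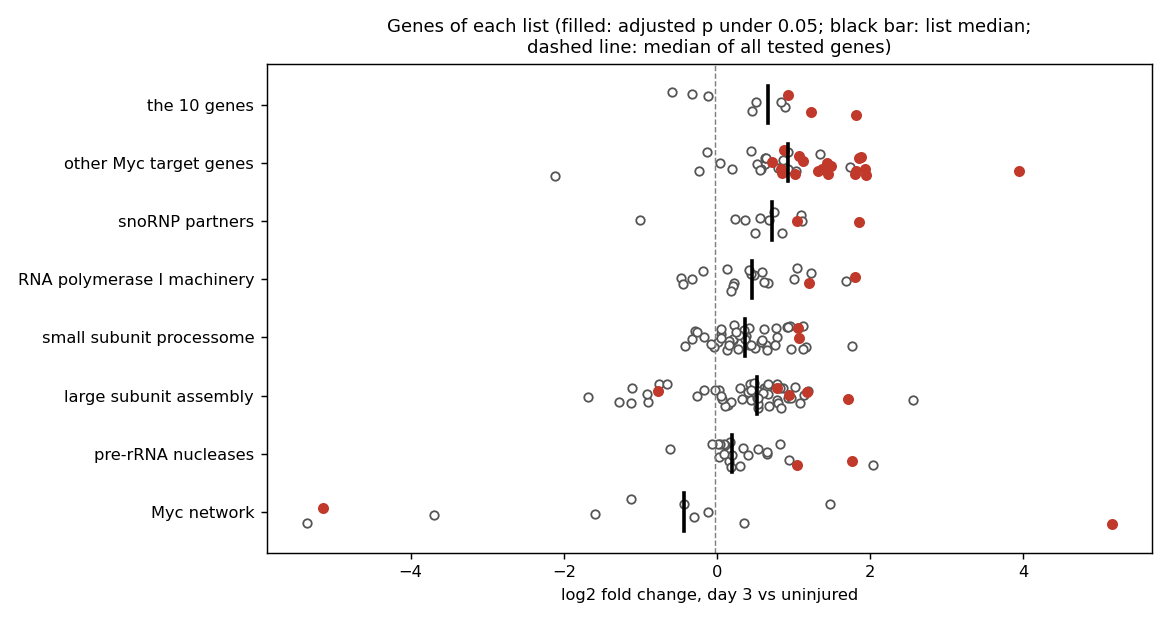
Log2 fold change at day 3 against uninjured (horizontal axis) of each tested gene in the 10 genes and 7 lists; filled points had an adjusted p under 0.05 by edgeR, black bars are list medians and the dashed line is the median of all tested genes. The bar of the other Myc target genes sits at 0.93 with 19 filled points, and that of the Myc network at -0.43.

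Other features of the libraries moved along with day 3. The 9 ribosome biogenesis genes summed to 991 and 1285 CPM in uninjured cells, 1885 and 2306 CPM at day 3, 1046 and 1059 CPM at day 7, 962.6 and 1110.0 CPM at week 2, and 875 and 863 CPM at week 4. A list of 35 cell cycle genes summed to 491 and 415 CPM in uninjured cells, 4024 and 4890.0 CPM at day 3, 1116 and 1257 CPM at day 7, 435 and 473 CPM at week 2, and 454 and 412 CPM at week 4. Both sums were highest at day 3. At day 3, 27 of the 35 cell cycle genes were higher than in uninjured cells and 0 lower, where 7.39% of all genes were higher and 4.4% lower.

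Markers of 20 genes for macrophages and monocytes summed to 84.7 and 95.5 CPM in uninjured cells, 732 and 1277 CPM at day 3, 2047 and 3374 CPM at day 7, 563.5 and 642 CPM at week 2, and 193 and 283 CPM at week 4. This sum was highest at day 7. For the marker counts that follow, 7.39% of all genes were higher and 4.4% lower at day 3 than in uninjured cells. At day 3, 14 of the 20 were higher than in uninjured cells (8 without day 3 replicate 2) and 0 lower, and Itgam was at 0 in the uninjured group. Of 16 endothelial markers 7 were lower at day 3 (4 without uninjured replicate 1) and 0 higher, with sums of 437 and 339 CPM at day 3, against 906 and 781 CPM in uninjured cells. Of 14 pericyte and smooth muscle markers 3 were lower (1 without day 3 replicate 2) and 0 higher. Of 18 cardiomyocyte markers 15 had a negative log2 fold change (median -1.64), with sums of 91.2 and 57.4 CPM at day 3, against 200.4 and 242 CPM in uninjured cells. By edgeR 1 was higher (Nppa) and 1 lower (Tnni3), and each lost its call without either uninjured library or without 1 day 3 library (replicate 1 for Nppa, replicate 2 for Tnni3). Erythroid genes (5 tested) and lymphocyte and neutrophil markers (8 tested) gave 0 calls at day 3 by edgeR. An unadjusted p under 0.05 was reached by 4 and 1 of them, and DESeq2 called 4 and 1. All 5 erythroid genes had a negative log2 fold change, with sums of 1161 and 144 CPM at day 3, against 4256 and 6007 CPM in uninjured cells. All 8 lymphocyte and neutrophil markers had a positive one (median 5.4), and the 16 in the table summed to 4.63 and 11.2 CPM at day 3, against 0.604 and 0.699 CPM in uninjured cells. Of the 12 resident fibroblast markers 4 were higher and 6 lower at day 3 (2 lower without either uninjured library, 3 without day 3 replicate 2). Mitochondrially encoded genes held 1.36% and 1.07% of counts at day 3, against 2.66% and 2.71% in uninjured cells, 4.21% in week 2 replicate 1 and 0.987% to 1.49% in the other 5 libraries. The part of these in the results for the 10 genes was not tested.

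**Figure D4:**
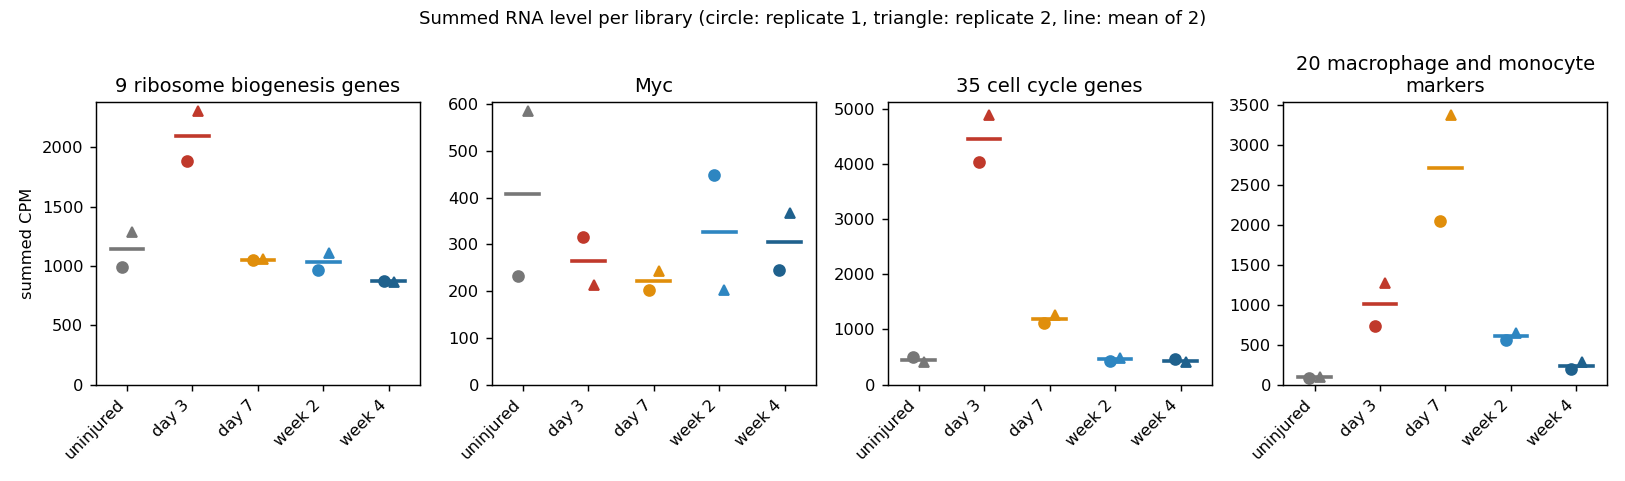
Summed CPM per library (vertical axes, each from 0) of the 9 ribosome biogenesis genes, of Myc alone, of 35 cell cycle genes and of 20 macrophage and monocyte markers; circles are replicate 1, triangles replicate 2, lines the mean of 2. The panels of ribosome biogenesis and cell cycle genes peak at day 3 (1885 and 2306 CPM, 4024 and 4890.0 CPM), the macrophage panel at day 7 (2047 and 3374 CPM).

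Peaks of open chromatin stood at every time at the 7 gene starts that were at hand. A peak lay within 1000 bases of the start in 10 of 10 ATAC libraries for each of the 7 genes with a RefSeq start (Ncl, Nolc1, Gnl3, Nop56, Nop58, Dkc1 and Polr1b). Over 16700 genes the share with such a peak was 63.9% to 70.8% per library. These 16700 were not filtered by RNA level, while the 7 genes all passed the filter on low counts. The 2 sets are therefore unlike, and nothing particular to the 7 is read from the shares. The fold enrichment of the strongest peak, the authors' own value from lists called in each library, was 65.5 to 113 at Ncl, which put it at or above 99.5% to 99.9% of the peaks in each list. It was 34.0 to 53.1 at Nop56, 29.3 to 54.1 at Nolc1, 27.2 to 45.4 at Gnl3, 22.4 to 37.5 at Nop58, 15.6 to 33.1 at Polr1b and 12.7 to 23.9 at Dkc1. For Myc, Npm1 and Fbl the start was not at hand, so the strongest peak reaching within 1000 bases of either gene end was read. In 10 of 10 libraries there was such a peak at the lower end of Myc (30.8 to 49.9), the upper end of Myc (5.84 to 49.9) and the upper end of Npm1 (30.97 to 56.2). There was such a peak at the lower end of Npm1 in 8 of 10 (3.23 to 52.5), and at both ends of Fbl in 10 of 10. At the upper end of Myc, the 49.9 of uninjured replicate 1 came from the peak also read at the lower end, with its summit at -4663 bases. The same peak was read at both ends in day 3 replicate 2, week 2 replicate 1 and week 4 replicate 1. At the lower end of Npm1, the 52.5 of day 3 replicate 1 and the 41.8 of week 4 replicate 2 had summits at -4105 and -4131 bases. These values do not measure opening at the ends themselves. At the lower end of Myc the summits lay at -317 and 368 bases at day 3 and at 320 in uninjured replicate 1. In the other libraries they lay at 1723 to 2079 bases, outside the 1000 bases, so those values do not measure opening at that end either. Within 50000 bases there were 3 to 10 peaks at Myc, 6 to 16 at Ncl and 12 to 24 at Npm1. The lists held 63901 to 107798 peaks and no counts, so no change between times was read from them.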

How the data were processed

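RNA values were the authors' deposited expected counts per gene; per the submitters' processing notes the tools included Trim Galore 0.6, FastQC, STAR 2.5.3a, DESeq2, Bowtie2 2.3 and MACS2 with the builds mm10 and GRCm38, without their roles. The counting program was not given in the sources used here, nor was the strand setting. ATAC peaks were deposited as lists called in each library, with a fold enrichment ratio, a −log10 p and q, and a score per peak, as the authors wrote them.

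Expected counts were rounded to whole numbers. Of 25746 genes (7472 without a count), 14968 passed edgeR's filterByExpr by group. They were scaled by TMM and tested in 1 quasi-likelihood fit of all 10 libraries by group (edgeR 4.0.16, R 4.3.3; 5 residual degrees of freedom; adjusted p under 0.05). CPM divide by the library total. The 10 genes and all lists (the Myc network, other Myc targets, 5 assembly lists, cell cycle, and markers of fibroblasts and of the other cell types) were chosen with earlier results of these data known. From each list the text names up to 4 genes called at day 3 with the largest fold among those with a mean of at least 10 CPM and non-overlapping libraries, and any further gene after its values were seen; the genes most like a profile are the 5 of highest r. Alternatives were other scalings, no filter, the replicate number as a block, each library left out, and DESeq2 1.42.0. Replicate numbers did not pair the libraries. Library totals of 16397211 to 21043997 set the precision of counting.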

Additional observations from a re-analysis of the deposited data

Results flagged for a closer look

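For 6 of the 10 genes the effect at a later time differed from that at day 3, by the direct contrast of the 2 times (edgeR, adjusted p under 0.05), which is the difference of their effects against the shared uninjured libraries. At day 7 against day 3 the log2 fold change was -1.08 for Npm1, -1.23 for Nop56 and -1.27 for Dkc1. At week 4 against day 3 it was -2.02 for Npm1, -1.30 for Gnl3, -1.11 for Nolc1, -0.98 for Dkc1, -0.92 for Nop56 and -0.89 for Ncl. Of these values, that of Npm1 at week 4 is the only 1 that passed with every library left out in turn. With 2 libraries a group, no single library could be tested for standing apart.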

How the results depend on the processing

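The number of the 10 genes called depended on single libraries. Where leaving out a library of the groups compared lowered that number, the number called over all genes fell as well. With each library left out in turn it ranged from 1 to 3 at day 3 against uninjured, 0 to 1 at day 7, 0 to 1 at week 4, 0 to 4 at day 7 against day 3, 1 to 6 at week 4 against day 3 and 2 to 6 over the 5 groups; the lone library left in a group is then assumed to vary like the others. Where no filter was used, 2 were called at day 7 against uninjured (Myc and Nop58), 1 at week 4 (Nop58) and 8 over the 5 groups. DESeq2 called 2 at day 7, 1 at week 4, 5 at day 7 against day 3, 7 at week 4 against day 3 (Nop58 besides the 6 by edgeR) and 8 over the 5 groups. Scaling by library totals called 1 at week 4 (Nop58). With the replicate number as a block the counts were 3 at day 3, 1 at day 7, 0 at week 2, 0 at week 4, 3 at day 7 against day 3, 6 at week 4 against day 3 and 6 over the 5 groups; the correlation of replicate differences between groups was -0.0181 to 0.0288, so the numbers do not pair the libraries. Over all genes DESeq2 called 2834 at day 3 against uninjured and 976 at day 7 against day 3, beside 1764 and 206 by edgeR. For 2 counts of list genes higher at day 3, alternatives were chosen after seeing the data: with each library left out the ribosome assembly count ranged from 1 to 14 and that of other Myc targets from 10 to 23.

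Log2 fold changes that changed sign, none of them called by edgeR with all libraries, ranged with each library left out from -1.13 to 0.22 (Myc), -0.73 to 0.19 (Nop58) and -0.35 to 0.046 (Polr1b) at day 3 against uninjured, from -0.55 to 0.010 (Gnl3), -0.10 to 0.16 (Fbl) and -0.19 to 0.087 (Dkc1) at day 7 against uninjured, and for Myc from -0.56 to 0.071 at day 7 against day 3 and -0.089 to 0.57 at week 4 against day 3. Fbl at day 7 was -0.00041 without the filter. The cause was not tested. Fold changes of single genes in the remaining contrasts were not followed in this way. Peaks at the 7 starts were found in 10 of 10 libraries also within 500 bases or at a −log10 q of at least 10. With 2 libraries a group and 5 residual degrees of freedom, a p that misses the threshold does not show equal levels.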
